A study of Nematostella vectensis with 4 samples.

Results

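Among the transcripts of the mCherry-negative cells of the sea anemone mesentery was a set that came mostly from a single library. It was defined by 3 thresholds on read counts scaled to CPM, counts relative to a common library size, with trimmed mean of M-values (TMM) factors for each library. A gene model belonged to the set if it had at least 10 CPM in non-muscle replicate 2, at least 3 times its CPM in non-muscle replicate 1, and at least 4 times its CPM in the higher of the muscle libraries. The rule held for 111 of 25729 gene models, which is 0.431% of the table.

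The libraries came from adult Nematostella vectensis of MHC::mCherry transgenic stock, in which the red fluorescent protein mCherry is under control of a muscle myosin gene. Mesenteries of 8 adults were freed of their distal-most tissue, dissociated with papain and collagenase and sorted by fluorescence, and polyA RNA was sequenced. The muscle group held 2 libraries of mesentery muscle, numbered 20955 (replicate 2 here) and 20953 (replicate 1), which were taken as the mCherry-positive cells. The non-muscle group held 2 libraries of mesentery non-muscle, numbered 20956 (replicate 2) and 20954 (replicate 1), taken as the mCherry-negative cells. All animals carried the transgene, and sex and age beyond adult are not given. The protocol counts 8 adults while the design text speaks of lines, and neither says which animals went into which library, so the spread between libraries may be partly technical. The replicate numbers follow accession order and do not by themselves pair a muscle with a non-muscle library.

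Mesenteries are the inward folds of the body wall of a sea anemone. They carry the retractor muscle that shortens the animal, the gonads with their germ cells, and filament tissue rich in gland cells and stinging cells that takes part in digestion. A mCherry-negative sort of this tissue can therefore hold many cell types. In bulk RNA, fewer cells of a type and less RNA per cell cannot be told apart. The identifiers of the count table carry no gene names, and 0 of them matched the RefSeq gene table used here, so the gene models are described by identifier, without function. The labelled cell types were not checked against markers for the same reason.

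Depth was 53424952 counts in muscle replicate 2 and 34876467 in muscle replicate 1, against 67102862 in non-muscle replicate 2 and 31813772 in non-muscle replicate 1. The lowest count of any of the 111 gene models was 19 in muscle replicate 2, 3 in muscle replicate 1, 880 in non-muscle replicate 2 and 77 in non-muscle replicate 1.

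The 111 gene models took up a small part of the muscle libraries and a visible part of non-muscle replicate 2. They held 0.133% of the counts of muscle replicate 2 (95% Wilson interval 0.132 to 0.134) and 0.0995% of those of muscle replicate 1 (0.0985 to 0.101). In non-muscle replicate 2 they held 2.04% (2.03 to 2.04), and in non-muscle replicate 1 0.535% (0.532 to 0.537). Such an interval covers counting error alone, with each read taken as independent, and not the spread between libraries. PCR copies of a molecule were not told apart, so it may be too narrow even for that. On the TMM scale the levels of the set summed to 1590 CPM in muscle replicate 2, 1292 CPM in muscle replicate 1, 17248 CPM in non-muscle replicate 2 and 4068 CPM in non-muscle replicate 1. The sum in non-muscle replicate 2 was 4.24 times that in replicate 1, and the higher muscle sum stood at 0.0922 of it. These contrasts are what the rule selected, so they describe the set and test nothing.

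**Figure D1:**
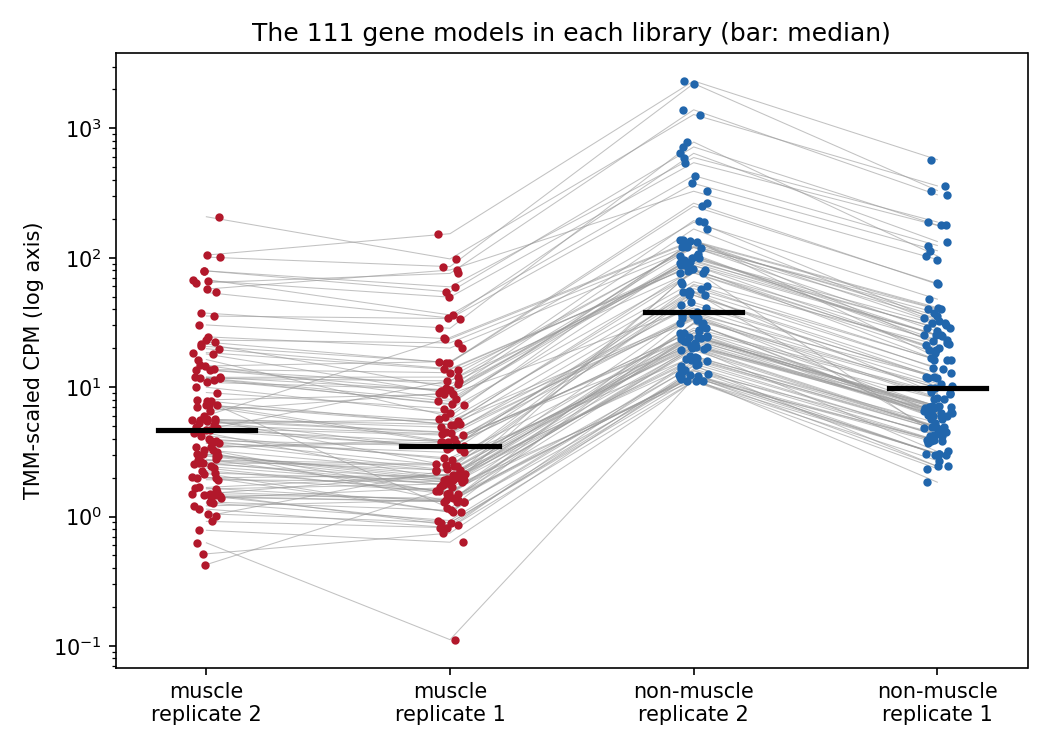
Each point is the TMM-scaled CPM of 1 of the 111 gene models in 1 library, on a log axis, with a grey line joining the points of a gene model and a black bar at the median. The medians were 4.70 and 3.50 CPM in muscle replicates 2 and 1, and 38.1 and 9.78 CPM in non-muscle replicates 2 and 1. Gene models high in 1 library tended to be high in the others, but the lines are not parallel. Between the muscle libraries the log2 ratio (replicate 2 over 1, CPM + 0.5) ran from -1.92 to 2.33.

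Across the set, non-muscle replicate 1 lay between the muscle libraries and non-muscle replicate 2. The median level was 4.70 CPM in muscle replicate 2, 3.50 CPM in muscle replicate 1, 38.1 CPM in non-muscle replicate 2 and 9.78 CPM in non-muscle replicate 1. The rule set only upper limits on the last of these levels, and did not ask whether non-muscle replicate 1 exceeded muscle. It exceeded both muscle libraries for 108 of the 111 gene models and was at least 2 times the higher muscle library for 68 of them. The latter held for 3095 of all 17994 gene models tested. Both muscle libraries thus lay below both non-muscle libraries for those 108 gene models (97.3%), beside 37.6% of all 17994 gene models tested, but the rule had already put muscle below non-muscle replicate 2, so nothing is read from this. Another 442 gene models had at least 10 CPM in non-muscle replicate 2 and at least 4 times the higher muscle library. Their ratio between the non-muscle libraries was under 3, so by arithmetic all 442 had non-muscle replicate 1 above both muscle libraries. It was at least 2 times the higher muscle library for 417 of them, a count that the same limits favoured, so nothing is read from either count. The median log2 ratio of the higher muscle library to non-muscle replicate 1 was -1.06 (on CPM + 0.5, as for all log2 ratios of libraries here), and that of the higher muscle library to non-muscle replicate 2 was -2.96. Of the summed CPM of a gene model over the 4 libraries, non-muscle replicate 2 supplied 68.2% at the median, with a range from 58.2% to 92.8%. The rule itself allows no share under 54.5%, so this range restates the choice.

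The most abundant gene models of the set ranked among the leading transcripts of non-muscle replicate 2. NVE18268 had 104.8 and 153.3 CPM in muscle replicates 2 and 1, against 2323 and 572.5 CPM in non-muscle replicates 2 and 1. It was the 46th gene model by level in non-muscle replicate 2 and the 252nd in non-muscle replicate 1. NVE10958 had 101.1 and 85.3 CPM in the muscle libraries, against 2218 CPM in non-muscle replicate 2 and 330.7 CPM in replicate 1. For both gene models the 2 fractions did not overlap. Non-muscle replicate 1 stood nearer to muscle than to the other non-muscle library on the linear scale. The 3-fold limit of the rule fixes this wherever non-muscle replicate 1 is above muscle. The fitted log2 fold change of muscle over non-muscle was -3.48 (SE 0.63) for NVE18268 and -3.77 (SE 0.88) for NVE10958, which the choice of the set makes low in any case. Without non-muscle replicate 2 these values were -2.15 and -1.83, and without non-muscle replicate 1 they were -4.15 and -4.56.

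NVE23459 followed with 64.2 and 75.6 CPM in the muscle libraries, against 1391 and 306.2 CPM in non-muscle replicates 2 and 1. NVE1644 had 207.3 CPM in muscle replicate 2 and 97.9 CPM in muscle replicate 1, against 1278 and 358.9 CPM in non-muscle replicates 2 and 1. Its muscle libraries were thus farther apart than those of the 3 gene models above it, and it was the highest of the set in muscle replicate 2. The 4 gene models above 1000 CPM in non-muscle replicate 2 were also the 4 highest of the set in non-muscle replicate 1. Together they made up 30.0% and 31.9% of the set's counts in muscle replicates 2 and 1, against 41.8% and 38.5% in non-muscle replicates 2 and 1.

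The next 4 gene models by level shared 1 order of libraries. NVE18269 had 37.3 and 28.5 CPM in muscle replicates 2 and 1, against 783.2 and 103.1 CPM in non-muscle replicates 2 and 1. NVE22573 had 79.1 and 54.4 CPM in muscle, against 718.1 and 178.6 CPM in non-muscle. NVE4897 had 53.9 and 34.2 CPM in muscle, against 640.7 and 133.4 CPM in non-muscle. In all 3, muscle replicate 2 was above muscle replicate 1 and no muscle library reached non-muscle replicate 1. NVE2814 had 79.1 and 59.5 CPM in muscle, against 594.4 and 188.7 CPM in non-muscle, and so lay closest of these 8 to the 3-fold limit between the non-muscle libraries. In all, 26 gene models of the set, these 4 included, had 100 to 1000 CPM in non-muscle replicate 2, 55 had 20 to 100 CPM and 26 had under 20 CPM.

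**Figure D2:**
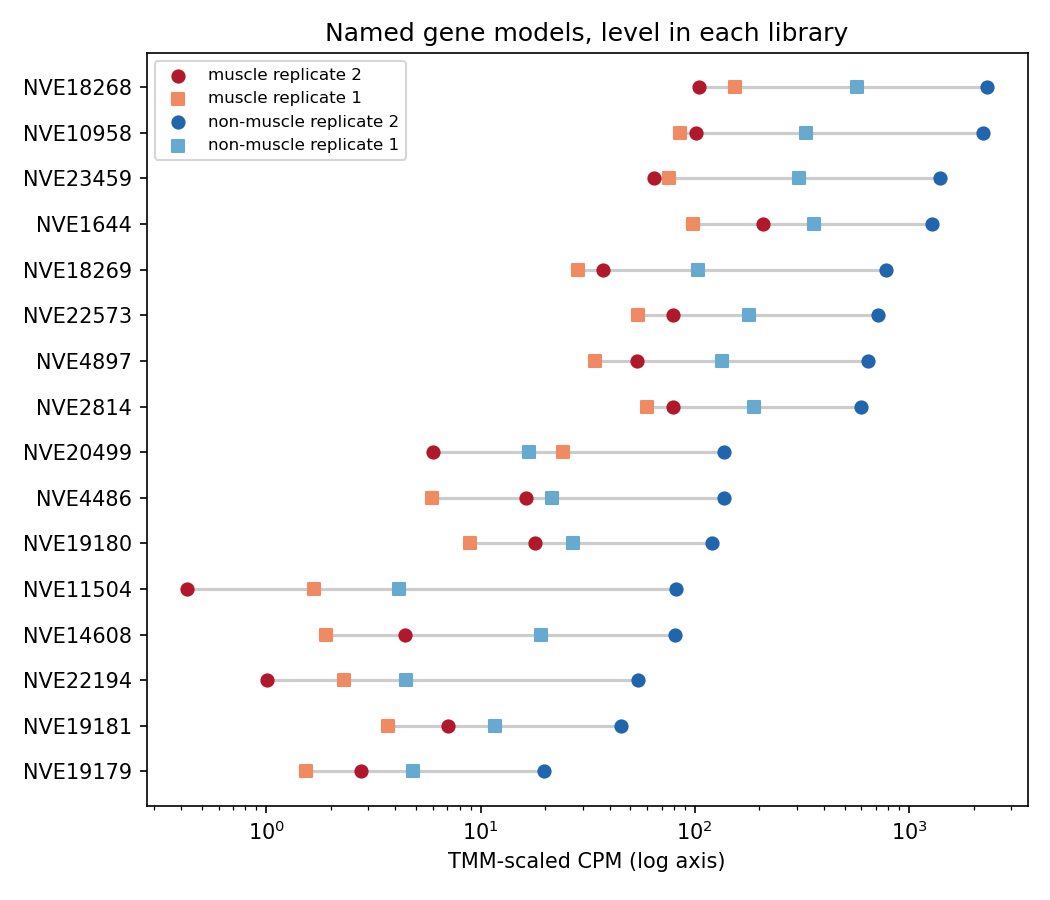
Each row is a gene model named in the text, with its TMM-scaled CPM in the 4 libraries on a log axis (red and orange for muscle, blue for non-muscle; circles for replicate 2, squares for replicate 1). Non-muscle replicate 2 is the rightmost point in each row by the choice of the set, and NVE20499 is the row in which muscle replicate 1 (24.2 CPM) passes non-muscle replicate 1 (16.9 CPM).

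The relative levels within the set were much alike in all 4 libraries. Of the 10 most abundant gene models in non-muscle replicate 2, 9 were among the 10 most abundant of the set in muscle replicate 2, 9 in muscle replicate 1 and 9 in non-muscle replicate 1. Over the 111 gene models, Pearson's r of log2(CPM + 0.5) was 0.952 for muscle replicate 2 with replicate 1, and 0.976 for non-muscle replicate 2 with replicate 1. Between a muscle and a non-muscle library it ran from 0.925 (muscle replicate 2 with non-muscle replicate 2) to 0.956 (muscle replicate 1 with non-muscle replicate 1). These values describe similarity across gene models, which are not replicates and span a wide range of levels, and the ratio between non-muscle libraries was limited by the rule.

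The excess of non-muscle replicate 2 over replicate 1 lay mostly near the 3-fold limit, which the rule set as its lower end, and had a few extreme cases. The ratio of their CPM was between 3 and 4 for 64 of the 111 gene models, between 4 and 6 for 37 and at least 6 for 10, with a median of 3.87. NVE11504 had 0.425 and 1.68 CPM in muscle replicates 2 and 1, against 81.4 CPM in non-muscle replicate 2 and 4.18 CPM in replicate 1, a ratio between the non-muscle libraries of 19.5. NVE22194 had 1.01 and 2.31 CPM in muscle replicates 2 and 1, against 54.1 and 4.50 CPM in non-muscle replicates 2 and 1, a ratio of 12.0. Both gene models were high in a single library and low in the other 3. Their fitted log2 fold changes of muscle over non-muscle were -5.40 (SE 1.51) and -4.16 (SE 1.19), and without non-muscle replicate 2 they were -2.05 and -1.46. Leaving out another library gave -6.63 to -4.65 for NVE11504 and -5.04 to -3.64 for NVE22194, with the lowest values without muscle replicate 1 and without non-muscle replicate 1, in that order.

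NVE20499 differed from the rest in that muscle replicate 1 lay above non-muscle replicate 1. It had 6.02 CPM in muscle replicate 2 and 24.2 CPM in muscle replicate 1, against 137.3 CPM in non-muscle replicate 2 and 16.9 CPM in replicate 1. NVE6975 and NVE7760, named after their values were seen, were the other 2 of the 3 gene models in which non-muscle replicate 1 did not exceed both muscle libraries. NVE6975 had 19.8 and 13.9 CPM in muscle replicates 2 and 1, against 87.3 and 19.4 CPM in non-muscle replicates 2 and 1. NVE7760 had 7.83 and 1.15 CPM in muscle replicates 2 and 1, against 31.4 and 5.69 CPM in non-muscle replicates 2 and 1. In these 3 gene models the fractions overlapped, through muscle replicate 1 in NVE20499 and through muscle replicate 2 in the others.

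NVE4486 and NVE14608 complete the named gene models at the extremes of the set's ratios. NVE4486 had 16.3 and 5.92 CPM in muscle replicates 2 and 1, against 136.8 and 21.5 CPM in non-muscle replicates 2 and 1. NVE14608 had 4.43 and 1.90 CPM in muscle, against 80.4 and 19.2 CPM in non-muscle, and its log2 ratio of the higher muscle library to non-muscle replicate 2 was -4.04. In both, muscle replicate 2 was more than 2 times muscle replicate 1, which is a wider gap than in most of the set. The log2 ratio of muscle replicate 2 to replicate 1 was beyond 1 in either direction for 10 of the 111 gene models.

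The thresholds cut through a continuous range of values. NVE18064, the lowest of the set in level, had 11.1 CPM in non-muscle replicate 2, and NVE11627, which met the other conditions, fell outside with 9.82 CPM. At the limit between the non-muscle libraries, NVE12961 lay inside with a ratio of 3.01 and NVE24949 outside with 2.997. At the limit against muscle, NVE7760 lay inside with non-muscle replicate 2 at 4.02 times the higher muscle library, and NVE5191 outside at 3.997. In all, 553 gene models had at least 10 CPM in non-muscle replicate 2 and at least 4 times the higher muscle library, and the set is the upper 20.1% of these by the ratio of the non-muscle libraries. Non-muscle replicate 2 exceeded replicate 1 by a median log2 ratio of 1.89 in the set and 0.78 in the other 442, and 87.6% of the 442 were higher in replicate 2.

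**Figure D3:**
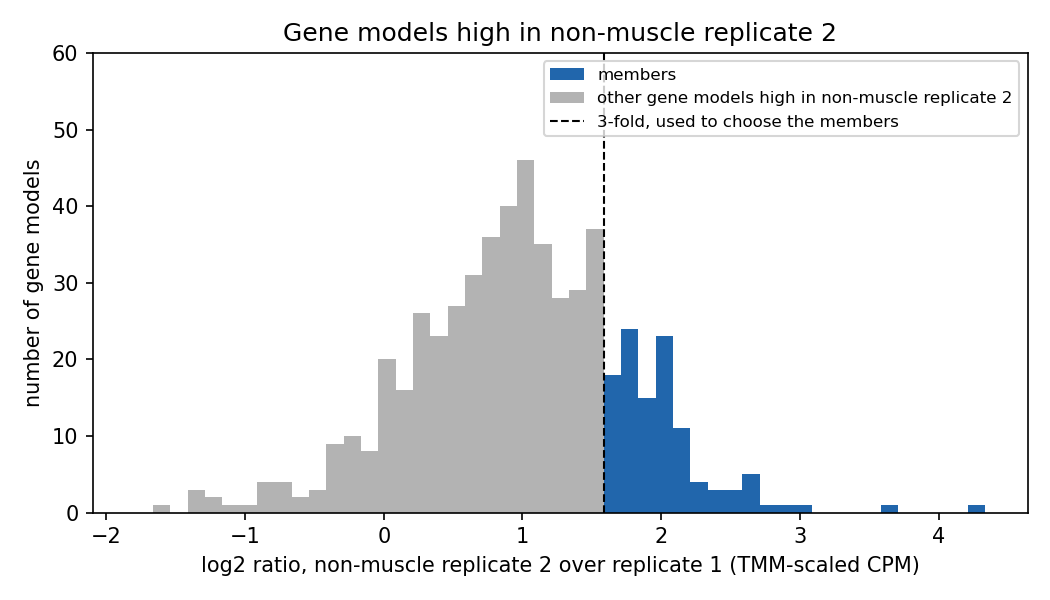
Number of gene models by the log2 ratio of TMM-scaled CPM in non-muscle replicate 2 over replicate 1, for the 553 gene models high in non-muscle replicate 2 relative to muscle. The 111 members (blue) lie right of the 3-fold limit that chose them, and values run on across that limit without a gap.

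Exchanging the roles of the libraries in the rule gave far smaller sets. With non-muscle replicate 1 as the high library and replicate 2 as the low library, 14 gene models met the same thresholds. With a muscle library as the high library, set against the other muscle library and against both non-muscle libraries, 4 gene models met them for muscle replicate 2 and 4 for muscle replicate 1. By level, the non-muscle libraries also differed in how many gene models reached at least 10 CPM and at least 4 times the higher muscle library, 553 in replicate 2 and 208 in replicate 1. Of the set, 3 gene models were among those 208. Non-muscle replicate 2 was the deepest library and replicate 1 the shallowest, and the part of depth in these counts was not tested.

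The ratio between the muscle libraries, whose direction the rule did not use, leaned to replicate 2 in this set. Of the 111 gene models, 90 (81.1%) were higher in muscle replicate 2 than in muscle replicate 1 and 21 were lower, and the median log2 ratio of muscle replicate 2 to replicate 1 was 0.34 (quartiles 0.08 and 0.55). Among the 442 other gene models high in non-muscle replicate 2, 43.4% were higher in muscle replicate 2, with a median of -0.06. Among 86 gene models that met the level and muscle conditions in both non-muscle libraries and lay within 1.5-fold between them, 23.3% were higher in muscle replicate 2, with a median of -0.24. Over all 17994 gene models tested the share was 52.8% and the median 0.03. With 1 library on each side, no test of this ratio was possible. The count of 90 was 90 under relative log expression (RLE) factors, 90 with TMM computed after the filter on low counts, and 94 under plain library totals.

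The lean of the muscle libraries was graded with the ratio of the non-muscle libraries. Among the 553 gene models high in non-muscle replicate 2, the median log2 ratio of muscle replicate 2 to replicate 1 was -0.43 where non-muscle replicate 2 was below replicate 1 (55 gene models). It was -0.14 at non-muscle ratios of 1 to 1.5 (105 gene models), -0.07 at 1.5 to 2 (122) and 0.10 at 2 to 3 (160). Within the set it was 0.28 at ratios of 3 to 4 (64 gene models) and 0.46 at 4 and over (47). Over the 553 gene models the log2 ratio in muscle and that in non-muscle gave 0.455 as Pearson's r and 0.504 as Spearman's rho, as a description across gene models in which each ratio rests on 1 pair of libraries and no library enters both.

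A gradient was also seen over gene models chosen without regard to fraction. The tested gene models averaging 10 CPM or more across libraries include only part of the set, since its other members average less. Over these 5182, Pearson's r was 0.382 and Spearman's rho 0.331. Their median log2 ratio of muscle replicate 2 to replicate 1 was -0.19 at non-muscle ratios under 1 and 0.57 at ratios of 4 and over (37 gene models). The upper classes consist largely of the set, however. Leaving it out, the 5113 gene models that are not part of it gave an r of 0.383 and a rho of 0.322, and their median was 0.19 at ratios of 2 to 3 (237 gene models) and 0.43 at 3 to 4 (21 gene models), with 4 gene models at 4 and over. Within the set alone r was -0.12 and rho 0.23, and r and rho thus differed in sign. NVE11504, NVE22194 and NVE20499, the 3 gene models with the highest ratio of the non-muscle libraries, went the other way, with log2 ratios of muscle replicate 2 to replicate 1 of -1.23, -0.90 and -1.92. In the opposite direction, all 14 gene models of the exchanged rule, high in non-muscle replicate 1, were lower in muscle replicate 2 than in muscle replicate 1 (median log2 ratio -1.28). Whether replicate 2 of each fraction came from the same dissociation is not given in the labels and was not tested.

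**Figure D4:**
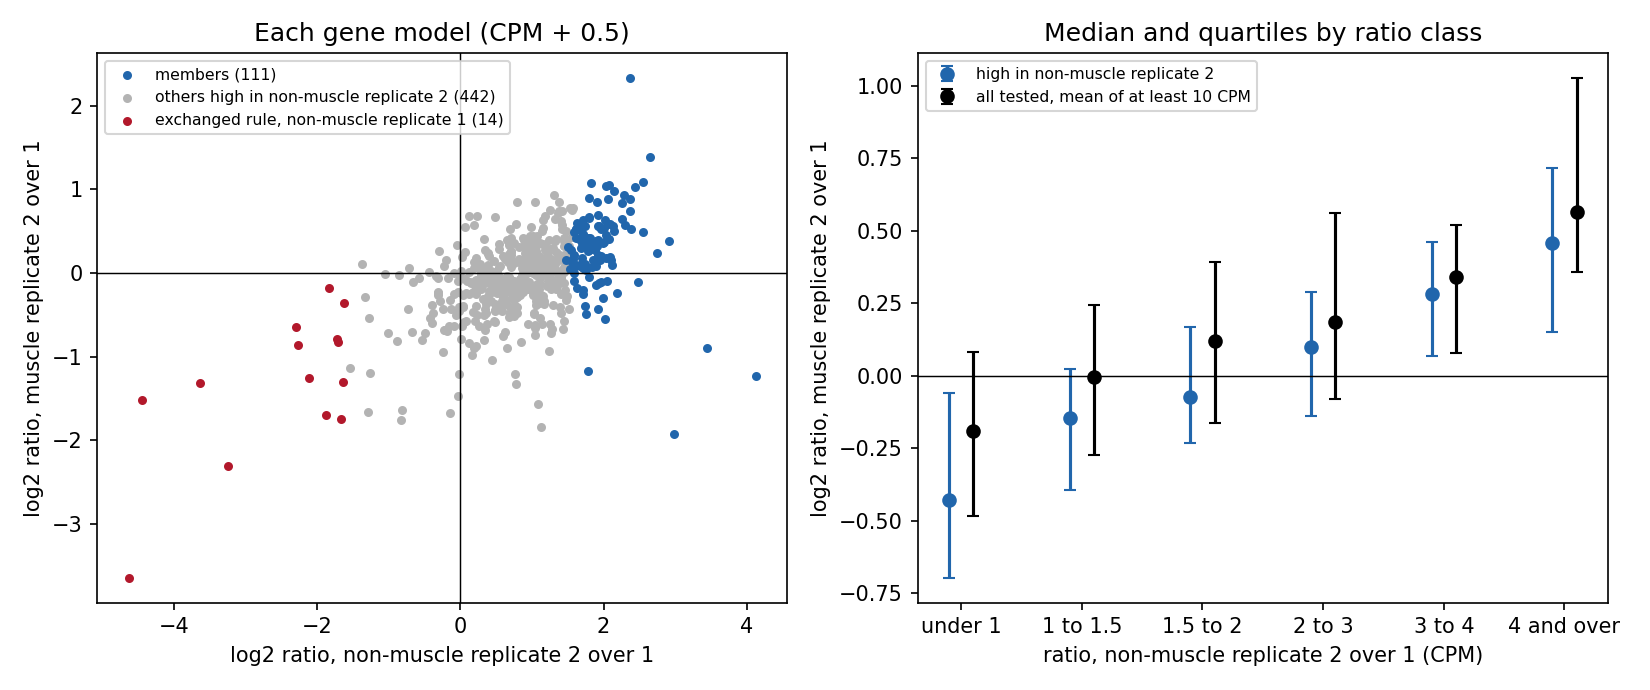
Left, the log2 ratio of muscle replicate 2 over 1 against that of non-muscle replicate 2 over 1 (CPM + 0.5) for the 111 members, the 442 other gene models high in non-muscle replicate 2 and the 14 gene models of the exchanged rule. Right, the median (point) and quartiles (bars) of the muscle ratio by class of the non-muscle ratio. The medians rise from -0.43 to 0.46 among the 553 gene models high in non-muscle replicate 2. They rise from -0.19 to 0.57 among 5182 gene models averaging 10 CPM or more, including the members at that level.

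Abundant and scarce gene models of the set had similar ratios between the non-muscle libraries, which the rule limited. The median ratio of non-muscle replicate 2 to replicate 1 was 3.74 in the 26 gene models under 20 CPM in non-muscle replicate 2, 3.64 in the 33 at 20 to 50 CPM, 3.88 in the 22 at 50 to 100 CPM and 4.04 in the 30 at 100 CPM and over. Muscle replicate 2 exceeded muscle replicate 1 for 22 of 26, 27 of 33, 17 of 22 and 24 of 30 gene models in the same classes. The median log2 ratio of the higher muscle library to non-muscle replicate 1 was -0.94, -0.91, -1.16 and -1.27 in these classes. Relative to non-muscle replicate 2 it was -2.75, -2.70, -3.31 and -3.23. By both ratios muscle stood lower in the classes from 50 CPM up, a difference that was not tested. The constant added to CPM before taking these log2 ratios shrinks them most where muscle levels are low, as in the scarcer classes. Part of the difference may come from that constant, so no trend with level is read from it.

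Some of the gene models carried consecutive identifier numbers. Of the 111, 15 (13.5%) had a number next to that of another gene model of the set, in 7 runs, where 0.840% of all gene models had a member of the set next to them by number. Whether the numbers follow positions in the genome is not stated in the sources used here, and neither is how reads shared between similar or overlapping models were counted.

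The longest run was NVE19179, NVE19180 and NVE19181. NVE19179 had 2.77 and 1.53 CPM in muscle replicates 2 and 1, against 19.9 and 4.85 CPM in non-muscle replicates 2 and 1. NVE19180 had 18.0 and 8.90 CPM in muscle, against 120.5 and 26.9 CPM in non-muscle. NVE19181 had 7.04 and 3.69 CPM in muscle, against 45.1 and 11.7 CPM in non-muscle. Their ratios between the non-muscle libraries, 4.09, 4.47 and 3.87, were close to each other although their levels differed severalfold, and in all 3 muscle replicate 2 was the higher muscle library.

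The pairs with the highest levels joined NVE18268 to NVE18269 and NVE23459 to NVE23460. The ratios of the non-muscle libraries were 4.06 and 7.59 in NVE18268 and NVE18269, so that neighbours by number were not scaled alike there. NVE23460 had 20.6 and 15.5 CPM in muscle, against 263.8 and 62.4 CPM in non-muscle, a ratio between the non-muscle libraries of 4.23 beside 4.54 in NVE23459. Gene models next to the set by number but outside it leaned the same way to a small extent. Of 117 such neighbours averaging 1 CPM or more, 63.2% were higher in non-muscle replicate 2 than in replicate 1 and 12.8% at least 2 times higher, against 51.6% and 5.83% of the 12908 other gene models outside the set at that level. Between the non-muscle libraries, their log2 ratio (replicate 2 over 1) had a median of 0.18, against 0.02 in the others.

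Muscle and non-muscle libraries were also compared by the edgeR quasi-likelihood test over all 17994 gene models that passed the filter on low counts, and all 111 passed it. Since the rule used the same libraries and contrast, the outcome is a description. Of the 111, 106 were called lower in muscle and 0 higher (Benjamini-Hochberg adjusted p under 0.05), where 21.6% of all gene models tested were called lower and 23.7% higher. The 5 that were not called were NVE20499, NVE4486, NVE6975, NVE7760 and NVE14143, of which NVE14143 was named after its values were seen. NVE14143 had 2.15 and 1.08 CPM in muscle, against 14.7 and 2.44 CPM in non-muscle. The fitted log2 fold change of muscle over non-muscle ran from -5.40 to -1.61 in the set, with a median of -2.68 beside -0.01 over all gene models tested.

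Without non-muscle replicate 2, the library that defined the set, the remaining comparison set 2 muscle libraries against non-muscle replicate 1 alone, which was then assumed to vary like the muscle libraries. All 111 gene models kept a fitted log2 fold change below 0, with a median of -1.40 beside 0.03 over all gene models. Of the 111, 87 were at least 2-fold lower in muscle, and the same count over all gene models was not made. The edgeR test called 84 of the 111 lower in muscle and 0 higher, where 17.7% of 18203 gene models tested were called lower and 19.4% higher. The rule had held non-muscle replicate 1 and the muscle libraries under limits set by non-muscle replicate 2, so this comparison is not independent of the choice either. Leaving out a muscle library lowered the number of calls more, and the lone muscle library was then assumed to vary like the non-muscle ones. Without muscle replicate 2, 29 of the 111 were called lower where 7.67% of all gene models tested were, and without muscle replicate 1, 36 were called where 12.5% were. The median log2 fold change of the set was -2.92 and -2.48 in these fits. Without non-muscle replicate 1, all 111 were called lower where 22.6% of all gene models tested were, with a median of -3.33.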

How the data were processed

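RNA from sorted mesentery cells was measured in 4 libraries, 2 for each fraction, grouped by the tissue label. The authors deposited a table of raw read counts of gene models, with a column for each library. Per the submitters' processing notes, cutadapt and TopHat were used, without versions. Not given in the sources used here are the read counter and its use of strand, the build and the origin of the gene models. From the counts, TMM factors were computed on all rows and CPM derived (edgeR 4.0.16, R 4.3.3), and the 3 thresholds applied. The members and the comparisons were chosen with earlier results of these data known. Log2 ratios of libraries used CPM + 0.5. The test was edgeR's 2-sided quasi-likelihood test with robust=TRUE, after filterByExpr (minimum count 10, minimum total 15) and TMM. Benjamini-Hochberg adjustment was over 17994 gene models, with a threshold of 0.05. A standard error is the absolute log2 fold change divided by the square root of F. The fit was checked on simulated data. Total counts ranged from 31813772 to 67102862, and the chi-square for each degree of freedom between replicates was 69.4 (muscle) and 160 (non-muscle), so no library was counted as a copy of another. Alternatives were other scalings, thresholds, no filter, DESeq2 1.42.0, limma-voom (limma 3.58.1) and leaving out each library. Named are the 8 members of highest CPM, the 6 of highest non-muscle ratio, the 6 lowest in muscle relative to non-muscle replicate 2, the longest run, and the gene models nearest each threshold. The planned lists of cell type markers were not analysed here, since the identifiers matched no names, and no sequences are shown.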

Additional observations from a re-analysis of the deposited data

How the results depend on the processing

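The size of the set followed its thresholds: 271 and 47 gene models at a ratio between the non-muscle libraries of at least 2 and 4, 66 at a ratio over muscle of at least 8, and 553 without the condition on non-muscle replicate 1, an alternative chosen after seeing the data like the left-out muscle libraries and the scalings of the counts of 90 and 108. Plain library totals gave 95 gene models, 86 of them among the 111. RLE factors, TMM after filtering, the other level limits, a ratio over muscle of 2 and the rule with a single muscle library gave 85 to 133. Plain totals shifted the median log2 fold change of all gene models by -0.63 and that of the set to -3.30, which is -2.65 relative to all gene models, against -2.67 under TMM. Members called lower numbered 82 to 108 under other scalings, no filter, DESeq2 and limma-voom, and 29 to 111 without each library in turn. Of all gene models tested, 21.6% were called lower under TMM with the filter and 38.2% under plain totals, which called 104 members lower. This share was 22.0% under RLE, 17.1% without the filter (82 members), 20.5% under DESeq2 and 20.6% under limma-voom. The count under plain totals thus stood beside a higher share of all gene models, so stability is not read from it. The median log2 fold change of the set lay between -3.33 and -1.40 without each library in turn. The fold changes of the 16 gene models named for level, ratio or run stayed below 0 in each of 9 alternative fits. The choice of the set favoured this in every fit that kept non-muscle replicate 2. Without that library, the log2 fold changes of the 111 gene models ran from -2.59 to -0.165, the last in NVE20499. Without its 10 most abundant gene models, the set held 0.0610% and 0.0476% of counts in muscle replicates 2 and 1, and 0.747% and 0.210% in non-muscle replicates 2 and 1. Within 5 identifier numbers, 23.4% of the set had another member, where 3.87% of all gene models had a member that near. No paired fit was made, since the labels give no replicate numbers shared by the fractions and numbers in accession order do not pair libraries. The lowest count in the set, 3, was in muscle replicate 1.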

Other observations

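The 14 gene models of the exchanged rule, high in non-muscle replicate 1, had 11.1 to 164.0 CPM there. The most abundant, NVE12082, had 3.38 and 12.1 CPM in muscle replicates 2 and 1, against 44.4 and 164.0 CPM in non-muscle replicates 2 and 1. NVE12814, named after its values were seen, had the widest gap between the non-muscle libraries among the 14 on the log2 ratio of CPM + 0.5. It had 0.336 CPM in muscle replicate 2 and 9.94 CPM in muscle replicate 1, against 1.82 CPM in non-muscle replicate 2 and 57.1 CPM in non-muscle replicate 1, so both replicate 1 libraries were above both replicate 2 libraries.

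The lowest count in the set belonged to NVE23275, also named after its values were seen, with 28 and 3 counts in muscle replicates 2 and 1, against 922 and 77 counts in non-muscle replicates 2 and 1. The ratio of muscle replicate 1 to non-muscle replicate 2 was 0.00960 in CPM, with an exact Poisson interval on the 3 counts of 0.00198 to 0.0280, which covers counting error only.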
